A study of Mus musculus with 6 samples.

Results

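The imprinted growth genes examined here were H19, Igf2r, Meg3 and Grb10, which are expressed mainly from the maternal allele, and Igf2, Dlk1, Peg3, Mest, Ndn and Plagl1, which are expressed mainly from the paternal allele. The members were chosen by name, and all 10 had a row among the 56941 genes of the count table. Genomic imprinting silences one parental copy of a gene through DNA methylation laid down in the germ line at an imprinting control region. Many imprinted genes act on growth, with paternally expressed genes often promoting it and maternally expressed genes often restraining it, and several are switched down after birth and kept in adult stem cells. The counts do not separate the parental alleles, so the values below are total transcript levels and not a measure of imprinting itself.

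Total RNA was sequenced from FACS sorted hair follicle stem cells (HFSCs, sorted as CD34+/α6-integrin+) from the skin of female mice at PD68 (postnatal day 68), to compare genotypes at the second telogen, the resting phase of the hair cycle. The strain was B6;129S4-Dab2tm1Cpr/J, every mouse was Dab2fl/fl, and all received 75 mg/kg tamoxifen daily for 5 days. The 3 libraries labelled WT came from mice without Cre, and the 3 labelled Dab2-cKO from mice with a tamoxifen-inducible Cre under the K14 promoter, which is active in basal keratinocytes and hence not limited to HFSCs. The WT mice therefore control for tamoxifen and the floxed alleles but not for the Cre, and labels do not say how many mice gave each library.

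Dab2, the gene targeted by the Cre, was checked first. In order of replicate number, the libraries labelled WT held 338.5, 332.2 and 309.3 normalized counts of it, and those labelled Dab2-cKO held 1434.2, 1300.2 and 1389.5. The targeted gene was thus higher in the libraries labelled Dab2-cKO (log2 fold change 2.08 ± 0.08 SE, adjusted p = 3.04e-34, edgeR quasi-likelihood test), which goes against the label. Counts cover the whole gene, so exons deleted by the Cre could not be told apart from those left. Most of the fibroblast, endothelial and immune markers examined were called higher as well (below). The part of such cells in the Dab2 level was not tested. Every direction below is that of the libraries labelled Dab2-cKO relative to the libraries labelled WT, and would turn if the labels or columns had been exchanged, which the counts do not settle. To normalize, each count was divided by its library's TMM-adjusted total and multiplied by the average of the 6 adjusted totals, and a gene was called when its adjusted p was under 0.05.

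The sequenced material also held transcripts of other cell types, which differed between the labels. The libraries held 7040032 to 11696457 counts, of which mitochondrial genes took 12.99% to 14.4% in WT and 19.1% to 20.3% in Dab2-cKO. Among 10 bulge markers, 7 were called higher and 3 lower in Dab2-cKO, with Cd34, used for the sort, at 510.4 ± 53.2 normalized counts in WT (SD, n = 3) and 1779.5 ± 35.6 in Dab2-cKO and Sox9, a transcription factor of the bulge, at 966.4 ± 52.4 and 354.8 ± 12.7. The bulge markers summed to between 19049.5 and 21812.3 in WT and between 32744.8 and 33708.8 in Dab2-cKO. The summed level of 12 fibroblast and dermal markers lay between 102837 and 124669 in WT and between 359141 and 378642 in Dab2-cKO, with 9 called higher and 2 lower. That of 10 skeletal muscle markers lay between 25029 and 29199 in WT and between 141143 and 143918 in Dab2-cKO, with 8 called higher. Markers of the hair matrix and inner root sheath (IRS), layers of a growing follicle, went the other way, with all 8 tested called lower and a sum of 211092 to 254219 in WT against 2963 to 3004 in Dab2-cKO. In bulk libraries, fewer cells of a type and less RNA per cell cannot be told apart. The fibroblast and muscle sums were above the bulge sum in every library, and the values below are those of mixed material. The part of these cell types in the results below was not tested.

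**Figure D1:**
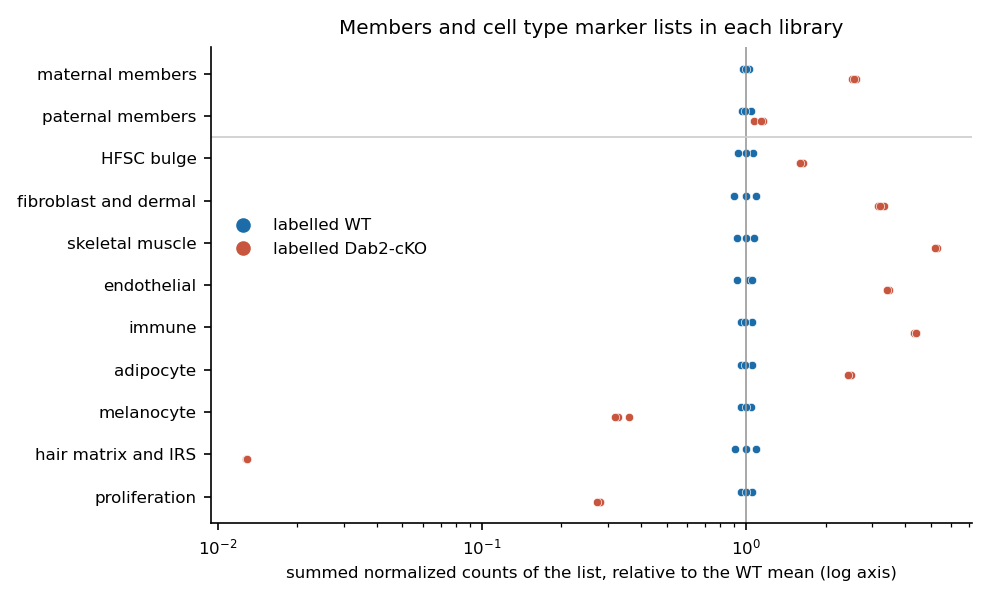
Summed normalized counts of the maternally and paternally expressed members and of 9 cell type marker lists in each library, relative to the mean of the libraries labelled WT (log axis, 1 point per library). In Dab2-cKO the members and the bulge, fibroblast, muscle, endothelial, immune and adipocyte lists lie above every WT library, the paternal members only just, and the melanocyte, hair matrix and proliferation lists lie below.

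All 10 members passed the filter on low counts. In Dab2-cKO 5 members were called higher (H19, Meg3, Grb10, Ndn and Igf2) and 2 were called lower (Igf2r and Mest), while Dlk1, Peg3 and Plagl1 were not called. Over all 32149 genes tested, 16.8% were called higher and 11.5% lower. Calls were more common among well-counted genes. With the filter at a mean of 50 counts, 4461 of 14801 genes were called higher and 4062 lower. Of the 4 maternally expressed members 3 were called higher and 1 lower, and of the 6 paternally expressed members 2 were called higher and 1 lower. The median log2 fold change was 1.09 for the maternally expressed members and 0.16 for the paternally expressed members, beside -0.02 for all genes tested. These medians describe a few genes each and carry no test. The paternal median changed sign when scaled to the library size only (-0.27) and with the filter at a mean of 50 counts (-0.02), which leaves 4 of these genes, and it ranged from 0.05 (without WT replicate 1) to 0.25 (without WT replicate 2) when a library was left out. The summed level of the maternal members lay between 2788 and 2931 normalized counts in WT and between 7191 and 7432 in Dab2-cKO, with most of the difference from H19, and that of the paternal members lay between 1276 and 1379 in WT and between 1413 and 1523 in Dab2-cKO.

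**Figure D2:**
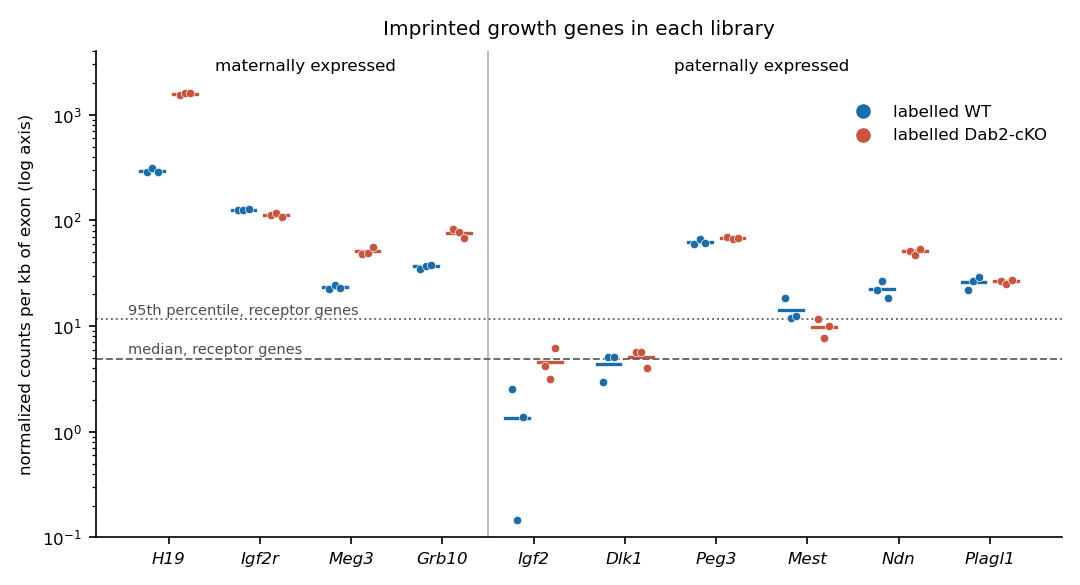
Normalized counts per kb of exon (log axis) of each member in each library, with points for libraries and bars for the means of 3 libraries. Dashed and dotted lines give the median (4.90) and 95th percentile (11.6) of 1439 chemosensory receptor genes. H19 is the highest member in every library, and Igf2 and Dlk1 lie near or below the receptor median.

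H19 is a long noncoding RNA that restrains growth, and it was the most abundant member per kb of exon and the one with the largest change. It is annotated on chromosome 7 of GRCm39 from 142129262 to 142133957 on the minus strand (ENSMUSG00000000031). H19 had 822.8, 888.3 and 810.0 normalized counts in the WT libraries and 4370.4, 4596.8 and 4533.9 in the Dab2-cKO libraries, replicates 1 to 3 in order here and below. The groups lay far apart and each was tight, with a 5.35-fold higher level in Dab2-cKO (log2 fold change 2.42 ± 0.07 SE, adjusted p = 2.74e-40, edgeR). The first exon of H19 is also the precursor of miR-675, through which part of its restraint of growth is thought to act. Its mature forms from RefSeq (GRCm38.p6) are shown here, since the host transcript carries the largest change, with the seed (bases 2 to 8) in capitals.
mmu-miR-675-5p: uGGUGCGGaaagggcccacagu
mmu-miR-675-3p: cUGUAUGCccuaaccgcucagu
The Mir675 row had 0 counts in all 6 libraries, but all its bases are also exon bases of H19, so that reads there may have gone uncounted, and libraries of this kind do not measure the mature forms. The 3 genes whose centred log2 CPM over the 6 libraries lay closest to that of H19, among 10845 genes with a mean of at least 100 normalized counts, were Ckm (distance 0.061), Myh1 (0.130) and Krt10 (0.136). Ckm is muscle creatine kinase, Myh1 is a myosin heavy chain of fast muscle and Krt10 is a keratin of the suprabasal epidermis. Their log2 fold changes were 2.42, 2.48 and 2.37, so their nearness to H19 largely repeats the difference between the groups.

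Igf2, the fetal growth factor that lies 70.5 kb from H19 and shares its control region and enhancers, had few counts. It had 14, 1 and 10 raw counts in WT and 27, 17 and 35 in Dab2-cKO. The groups did not overlap, and Igf2 was called higher (log2 fold change 1.78 ± 0.48 SE, adjusted p = 0.00209, edgeR). Per kb of exon, however, Igf2 had 1.35 ± 1.19 normalized counts (SD, n = 3) in WT and 4.54 ± 1.58 in Dab2-cKO, both under the median of 1439 odorant, vomeronasal and trace amine receptor genes (4.90), most of which are thought to be silent in skin. Of its exon bases, 58.4% are also annotated on the same strand to a readthrough gene, whose own row had 0 counts in all libraries, so that reads in the shared bases may have gone uncounted. Over the 2563 bases that are not shared, Igf2 had 3.26 ± 2.87 normalized counts per kb in WT and 10.9 ± 3.80 in Dab2-cKO, the latter above the receptor median and below the 95th percentile (11.6). Its mean level did not stand above that percentile by either length. WT replicate 2, with 1 count, set much of its size, as the log2 fold change was 1.25 without that library (adjusted p = 0.043) and 2.52 without WT replicate 1. The log2 ratio of H19 to Igf2 counts within a library was 5.67, 9.36 and 6.50 in WT and 7.38, 7.84 and 6.86 in Dab2-cKO. The difference of 0.18 (2-sided exact permutation test, p = 0.9) says little, since it rests on the few Igf2 counts. It was 1.27 without WT replicate 2 and turned to -0.57 without WT replicate 1, -0.16 without WT replicate 3 and -0.06 without Dab2-cKO replicate 2.

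Igf2r, the receptor that carries IGF2 to the lysosome, was the second most abundant member per kb and changed little. It is annotated on chromosome 17 from 12901293 to 12988614 on the minus strand. Igf2r had 1169.1, 1189.0 and 1209.9 normalized counts in WT and 1045.2, 1092.0 and 1006.6 in Dab2-cKO. Every Dab2-cKO library lay below every WT library, but the fall was small (log2 fold change -0.18 ± 0.07 SE, adjusted p = 0.0462, edgeR), and the call was lost without WT replicates 2 or 3 or Dab2-cKO replicates 1 or 3, where the adjusted p reached 0.208. Airn, the paternally expressed antisense RNA that silences Igf2r on the paternal allele, also fell, from 217.7 ± 19.2 to 139.8 ± 10.6 (log2 fold change -0.64 ± 0.13 SE). Slc22a3, an organic cation transporter gene of the same cluster, rose from 63.3 ± 15.9 to 128.7 ± 26.5. Airn runs through introns of Igf2r without sharing exon bases.

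Grb10, an adaptor that dampens signalling from the insulin and IGF1 receptors, doubled. It had 358.5, 381.9 and 390.5 normalized counts in WT and 846.8, 791.6 and 703.0 in Dab2-cKO. The groups did not overlap, and the level was 2.07-fold higher (log2 fold change 1.05 ± 0.09 SE, adjusted p = 2.6e-17, edgeR). It is annotated on chromosome 11 from 11880498 to 11988683 on the minus strand.

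Meg3, a long noncoding RNA of the Dlk1-Dio3 cluster known as a growth suppressor, rose by a like amount. It had 437.6, 472.2 and 446.0 normalized counts in WT and 928.8, 951.6 and 1076.1 in Dab2-cKO. No library overlapped with the other group, and the level was 2.18-fold higher (log2 fold change 1.12 ± 0.08 SE, adjusted p = 5.23e-20, edgeR). It is annotated on chromosome 12 from 109506877 to 109538165 on the plus strand.

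Dlk1, the paternally expressed Notch-like inhibitor of differentiation 77.6 kb upstream of Meg3, was near background. It had 17.8, 30.7 and 30.8 normalized counts in WT and 34.3, 34.5 and 24.3 in Dab2-cKO, and the groups overlapped (log2 fold change 0.22 ± 0.32 SE, adjusted p = 0.706, edgeR). Its level per kb of exon was 4.38 ± 1.24 in WT and 5.14 ± 0.97 in Dab2-cKO, close to the receptor median of 4.90. The log2 ratio of Meg3 to Dlk1 counts was 4.58, 3.92 and 3.84 in WT and 4.74, 4.76 and 5.44 in Dab2-cKO. The difference of 0.87 had p = 0.1 (2-sided exact permutation test), the smallest that 3 against 3 libraries allow. In the same test p was 0.2 without Dab2-cKO replicate 1, 2 or 3. The ratio rests on few Dlk1 counts near background, so it says little beyond the rise of Meg3.

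The other genes of the Dlk1-Dio3 cluster were then examined. They were picked by their position after their values had been seen, as were the neighbours of other members. Rian, a maternally expressed noncoding RNA that hosts small nucleolar RNAs, had 459.8, 455.0 and 461.4 normalized counts in WT and 1224.4, 1296.8 and 1355.3 in Dab2-cKO (log2 fold change 1.49 ± 0.08 SE, adjusted p = 3.19e-27, edgeR). Mirg, the maternally expressed host of a microRNA cluster, rose from 77.9 ± 26.1 to 124.9 ± 9.3. Meg3, Rian and Mirg were thus all called higher, though Mirg was not called without WT replicate 3 (log2 fold change 0.44, adjusted p = 0.0887). The paternally expressed Rtl1, a retrotransposon-derived gene needed in the placenta, was called higher too, at 109.7 ± 11.01 and 162.2 ± 29.7, but not without Dab2-cKO replicate 3 (0.38, adjusted p = 0.103). Of the exon bases of Rtl1, 9.21% are also annotated on the opposite strand to microRNA genes. The strand setting of the counting is not given in the sources used here. Dio3, which inactivates thyroid hormone, was called lower, but its level per kb in WT (5.26) was near the receptor median and the call was lost without WT replicate 2 or Dab2-cKO replicate 1 (adjusted p = 0.0547 and 0.0682).

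For Meg3 and Grb10, which both rose, the 250 bases before the start of the canonical GENCODE transcript are shown from GRCm39. CpG dinucleotides, the sites of DNA methylation, are in capitals. The windows are chr12:109506629-109506878 on the plus strand for Meg3 and chr11:11987420-11987669 on the minus strand for Grb10. The window of Grb10 lies within its annotated gene, since another transcript starts further upstream.
Meg3: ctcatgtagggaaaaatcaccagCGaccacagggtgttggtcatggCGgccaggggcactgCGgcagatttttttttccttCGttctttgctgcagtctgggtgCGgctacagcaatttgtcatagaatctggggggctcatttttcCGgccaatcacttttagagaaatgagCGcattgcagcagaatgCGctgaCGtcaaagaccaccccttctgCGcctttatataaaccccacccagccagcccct
Grb10: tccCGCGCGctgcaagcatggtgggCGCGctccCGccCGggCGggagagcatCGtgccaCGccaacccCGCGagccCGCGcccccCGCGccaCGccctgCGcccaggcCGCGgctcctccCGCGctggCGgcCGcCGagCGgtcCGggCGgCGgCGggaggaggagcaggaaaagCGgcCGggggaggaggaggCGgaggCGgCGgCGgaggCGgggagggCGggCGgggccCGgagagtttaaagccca
The windows differ widely in their letters, with 10 CpG for Meg3 and 40 for Grb10, beside a median of 5 over 32808 promoters of this length. The letters TGCCGC, read on both strands and known as the core of the ZFP57 motif, occur once before Meg3 and not before Grb10. They occur in the windows of 4 of the 10 members (H19, Mest, Meg3 and Plagl1) and in 7.90% of all these promoters. Methylation was not measured here. Meg3 and Grb10 were taken from the 4 of 10 members whose GENCODE start lay within 10 bases of a RefSeq start. The others were Igf2 and Mest.

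Ndn encodes necdin, a MAGE family protein that holds cells out of division, and it was called higher with Igf2 among the paternally expressed members. It had 82.4, 102.0 and 69.2 normalized counts in WT and 194.5, 177.2 and 204.2 in Dab2-cKO. The groups did not overlap, and the level was 2.27-fold higher (log2 fold change 1.18 ± 0.15 SE, adjusted p = 1.13e-09, edgeR). Its neighbour Magel2, of the same family, had 20.9 ± 5.1 and 16.4 ± 3.1 normalized counts and was not called. Per kb of exon, Magel2 had 4.51 in WT and 3.55 in Dab2-cKO, under the receptor median of 4.90. The genes closest to Ndn by the measure used for H19 were Enpep (distance 0.211), Entpd1 (0.212) and Lmod1 (0.213), which encode a cell surface aminopeptidase, an enzyme that degrades extracellular ATP and a smooth muscle actin regulator. Here too the log2 fold changes were alike, at 1.17, 1.16 and 1.21.

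Mest, which encodes a hydrolase-like protein of the endoplasmic reticulum linked to mesodermal growth, was low and called lower. It had 149.2, 95.7 and 99.97 normalized counts in WT and 93.5, 62.1 and 80.6 in Dab2-cKO. The highest Dab2-cKO library lay just under the lowest WT library (log2 fold change -0.52 ± 0.19 SE, adjusted p = 0.0241, edgeR), and without WT replicate 1 the log2 fold change was -0.30 with an adjusted p of 0.342. The call was also lost with DESeq2 (adjusted p = 0.0607) and without Dab2-cKO replicate 2 (adjusted p = 0.127). Of its exon bases, 47.7% are also annotated on the opposite strand to Copg2, a maternally expressed coat protein gene that was called lower as well, at 489.6 ± 18.3 and 383.1 ± 43.4, and the strand setting of the counting is not given in the sources used here.

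Peg3 and Plagl1, paternally expressed zinc finger factors linked to growth control and growth arrest, were well above background and not called. Peg3 had 823.9, 919.0 and 844.2 normalized counts in WT and 945.0, 904.4 and 924.9 in Dab2-cKO (log2 fold change 0.10 ± 0.08 SE, adjusted p = 0.375, edgeR). Plagl1 had 187.1, 230.2 and 249.5 in WT and 229.8, 215.2 and 235.1 in Dab2-cKO (log2 fold change 0.02 ± 0.12 SE, adjusted p = 0.93, edgeR). The groups overlapped for both genes. Scaled to the library size only, which shifted the median of all genes tested to -0.45, Peg3 was called lower with a log2 fold change of -0.33 and Plagl1 with -0.40. At the Peg3 locus, the maternally expressed Zim1, another zinc finger gene, fell from 183.6 ± 14.5 to 115.7 ± 12.6, and the paternally expressed Usp29 had 90.7 ± 3.5 and 82.8 ± 7.9, near background.

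Levels can be compared between members only per kb of exon. In WT the order was H19 (295 ± 14.8 normalized counts per kb), Igf2r (127 ± 2.18), Peg3 (63.1 ± 3.67), Grb10 (36.8 ± 1.61), Plagl1, Meg3, Ndn, Mest (14.2 ± 3.68), Dlk1 and Igf2. Plagl1 (26.0 ± 3.74), Meg3 (23.4 ± 0.934) and Ndn (22.4 ± 4.37) did not differ beyond their spread. In Dab2-cKO H19 (1580 ± 41.0) and Igf2r (112 ± 4.56) kept their places, Grb10 (76.1 ± 7.07) and Peg3 (67.7 ± 1.49) overlapped, and Meg3 (51.0 ± 4.11) and Ndn (50.8 ± 3.62) overlapped above Plagl1 (26.5 ± 1.21). The lengths join the exons of all annotated transcripts, so a gene with many transcripts, such as Meg3 with 19306 bases, appears lower than its main transcript would.

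Another 38 imprinted genes served for comparison, of which 37 were tested. Of 16 maternally expressed genes, 7 were called higher and 3 lower, with a median log2 fold change of 0.37. Of 21 paternally expressed genes, 6 were called higher and 3 lower, with a median of 0.08. Among all genes tested, 16.8% were called higher and 11.5% lower. Calls were more common among genes averaging 50 counts or more, with 4461 of 14801 higher and 4062 lower. The largest rises among the maternally expressed genes were those of Dcn, a collagen-binding proteoglycan of fibroblasts (2300.1 ± 110.0 and 6889.6 ± 226.9, log2 fold change 1.58 ± 0.07 SE), Rian, Tfpi2, a protease inhibitor (14.3 ± 5.1 and 32.1 ± 5.4, 1.18 ± 0.38 SE), and Slc22a3 (1.03 ± 0.19 SE). Tfpi2 was not called without WT replicate 3 (0.99, adjusted p = 0.0749) or Dab2-cKO replicate 3 (1.03, adjusted p = 0.0732). Several of these, Dcn among them, are known to be imprinted mainly in the placenta. Among the paternally expressed genes, Nnat, a proteolipid of the endoplasmic reticulum, had 26.7, 46.9 and 43.6 normalized counts in WT and 404.3, 330.2 and 397.3 in Dab2-cKO (log2 fold change 3.24 ± 0.15 SE, adjusted p = 1.87e-29, edgeR). Sgce, a sarcoglycan of the muscle membrane complex, Peg13, a noncoding RNA, and Zrsr1, a splicing factor, rose by log2 fold changes of 0.94, 0.90 and 0.85. Peg13 shares 27.4% of its exon bases with Trappc9 on the same strand.

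**Figure D3:**
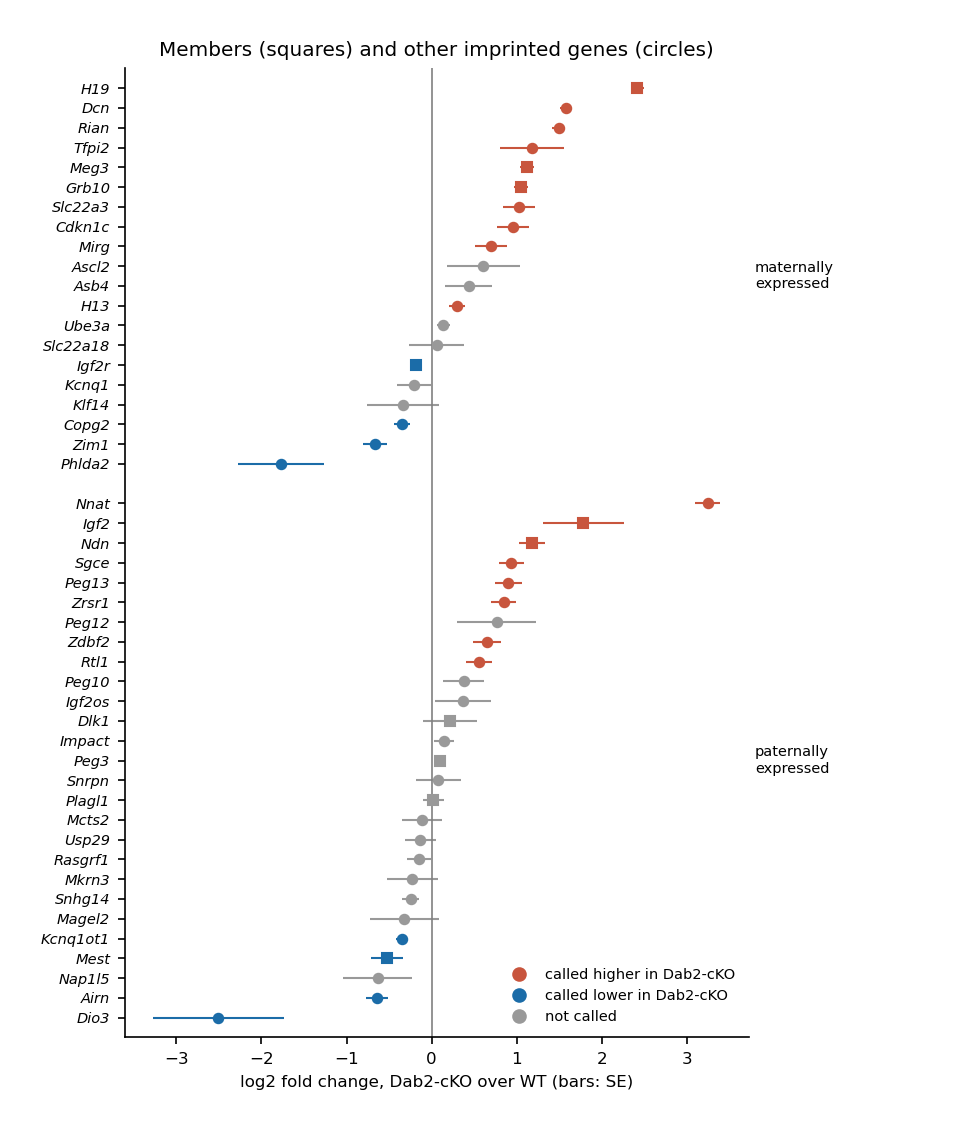
Log2 fold changes, Dab2-cKO relative to WT (points, with bars for the SE, 3 libraries a group) of the members (squares) and of 37 other imprinted genes (circles), maternally expressed genes above and paternally expressed genes below. Called genes lie on both sides of 0 in either class, and H19 (2.42) and Nnat (3.24) lead the rises.

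The IGF pathway, in which Igf2, Igf2r and Grb10 act, was read through 18 further genes, of which 10 were called higher and 2 lower. Over all genes tested, the shares were 16.8% higher and 11.5% lower. Among genes averaging 50 counts or more, 4461 of 14801 were called higher and 4062 lower. Igf1, the ligand that takes over from Igf2 after birth, had 331.8, 331.3 and 340.1 normalized counts in WT and 2075.0, 2038.9 and 2166.5 in Dab2-cKO (log2 fold change 2.65 ± 0.08 SE, adjusted p = 2.23e-41, edgeR). Its receptor gene Igf1r fell from 1005.7 ± 31.1 to 767.6 ± 70.3 (log2 fold change -0.39 ± 0.08 SE), while the insulin receptor gene Insr rose from 538.2 ± 23.7 to 822.7 ± 68.6 (0.61 ± 0.08 SE). M6pr, the second mannose 6-phosphate receptor beside Igf2r, had a log2 fold change of 0.24 ± 0.08 SE and was called higher, but turned to -0.19 when scaled to the library size only. Its call was also lost with DESeq2, upper-quartile scaling and both other filters, and without WT replicate 1, Dab2-cKO replicate 1 or Dab2-cKO replicate 2 (adjusted p from 0.0506 to 0.359). Of its exon bases, 57.1% are also annotated on the opposite strand to Phc1.

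Among the adaptors below these receptors, Irs1 and Irs2 rose by log2 fold changes of 0.46 and 0.49, and Grb7, of the same family as Grb10, fell by 0.55. Those of Irs1 and Irs2 were 0.04 and 0.06, and not called, when scaled to the library size only. Of 7 IGF binding proteins, which hold the ligands outside cells, 5 were called higher, and the other two, with log2 fold changes of 0.52 and -0.11, were not called. Igfbp6 rose from 235.2 ± 34.1 to 949.5 ± 42.7, Igfbp5 from 1779.8 ± 207.0 to 6649.9 ± 48.6, Igfbp3 from 252.3 ± 30.3 to 707.0 ± 47.6 and Igfbp7 from 551.0 ± 112.3 to 1344.5 ± 58.0. The 3 genes for proteins that bind Igf2 mRNA had log2 fold changes from -0.30 to 0.29 and were not called. Igf1 and several binding proteins are also made by fibroblasts. Of 12 fibroblast and dermal markers, 9 were called higher, among them Col3a1 (log2 fold change 1.98) and Lum (2.19). Hhip (-1.25) and Alx4 (-0.68) were called lower. The part of fibroblasts in the rises of Igf1 and the binding proteins was not tested.

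**Figure D4:**
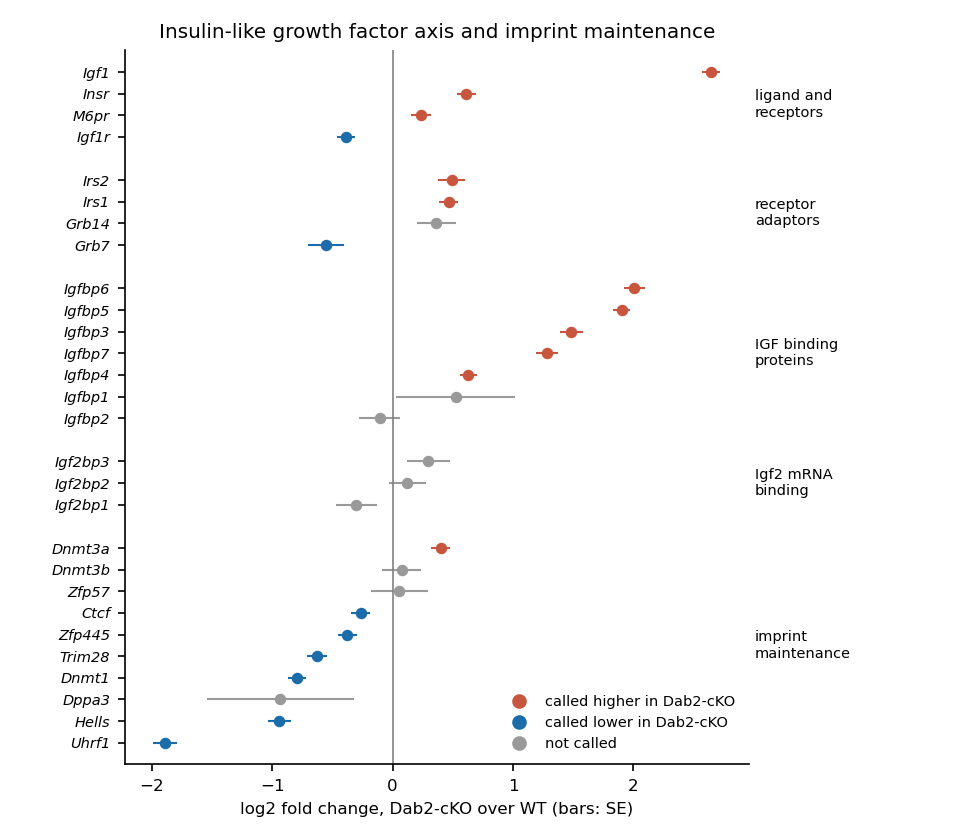
Log2 fold changes, Dab2-cKO relative to WT (points, with bars for the SE, 3 libraries a group) of 18 genes of the insulin-like growth factor axis and 10 genes linked to DNA methylation and imprint maintenance. Igf1 (2.65) and Igfbp6 (2.01) show the largest rises and Uhrf1 (-1.89) the largest fall.

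Of 10 genes linked to DNA methylation and imprint maintenance, 6 were called lower in Dab2-cKO and 1 higher. The latter was the de novo DNA methyltransferase gene Dnmt3a (log2 fold change 0.40 ± 0.08 SE, and -0.03 when scaled to the library size only). Over all genes tested, 11.5% were called lower and 16.8% higher. Among genes averaging 50 counts or more, 4062 of 14801 were called lower and 4461 higher. Uhrf1, which brings the maintenance methyltransferase to replicated DNA, fell from 793.1 ± 92.8 to 213.1 ± 27.7 normalized counts (log2 fold change -1.89 ± 0.10 SE), Hells, a chromatin remodeller, from 516.9 ± 47.2 to 270.2 ± 16.0, Dnmt1, the maintenance methyltransferase, from 1323.4 ± 132.8 to 763.5 ± 64.7, and Trim28, the corepressor of ZFP57, from 845.1 ± 47.4 to 547.7 ± 55.8. The adjusted p was at most 7.89e-10 for these 4 genes (edgeR). Of the exon bases of Trim28, 67.8% are also annotated on the opposite strand to Chmp2a, so that its counts carry the same limit as those of Mest. All 6 proliferation markers were also called lower, with a sum of 9464 to 10399 in WT and 2711 to 2786 in Dab2-cKO, Mki67 with a log2 fold change of -2.12 and Top2a with -1.72. Uhrf1, Dnmt1 and Hells are known to be raised in dividing cells, and the part of proliferation in their falls was not tested.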

How the data were processed

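The authors sequenced total RNA of 5 ng per sample with a stranded low-input kit, aligned the reads to GRCm39 with HISAT2 2.2.1 after fastp 0.23.4, and counted them with featureCounts 2.0.6 (submitters' processing notes). The authors deposited these counts per gene without normalization. Their own DESeq2 comparison (fold changes and p-values) was not used here. Treatment of multimapping reads, molecular identifiers and the annotation release are not given in the sources used here, so limits from counts cover counting error only. The count columns named FL-FL were taken as Dab2-cKO from the series' own wording, since both genotypes carry floxed alleles.

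Counts were filtered by filterByExpr, scaled by TMM and compared with edgeR 4.0.16 (R 4.3.3, robust quasi-likelihood test, Benjamini-Hochberg adjustment over 32149 genes). The fit was also tried on simulated counts in which few genes changed. That trial cannot speak to the scaling of these libraries, where many genes were called. Labels call the samples biological replicates. The labels' replicate numbers did not pair the libraries. Exon lengths and overlaps came from GENCODE, which held 56323 of the 56941 genes. The members and lists were chosen with earlier results of these data known. Named from each other list were the called genes with the 4 largest changes among those with a mean of at least 20 normalized counts. Added for a reason given where they appear were the neighbours of members, and the markers shown are examples. Ratios of counts had 0.5 added to each count. The SE of a log2 fold change was derived as its absolute value divided by the square root of the test's F statistic. Alternatives were DESeq2 1.42.0, other scalings, other filters, a replicate block and each library left out in turn.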

Additional observations from a re-analysis of the deposited data

How the results depend on the processing

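Of 128 refits of the members' fold changes, 109 kept the direction and the side of the threshold, and H19, Meg3, Grb10 and Ndn were called higher in all 13 alternatives. The count of members called higher was 5, and 4 when only genes averaging 50 counts or more were tested, which leaves out Igf2 and Dlk1. The count called lower was 2, against 1 with DESeq2, 1 with the replicate block, where Igf2r lost its call (adjusted p = 0.0566), 4 with the library size only, and 1 in each fit that left out a library. The correlations of deviations between libraries with the same number were 0.073, -0.014 and 0.059, so they share only a number, and the block left 3620 lower and 5347 higher calls over all genes, against 3682 and 5387. The median of the maternally expressed members was 0.943 with upper-quartile scaling, 0.659 with the library size only and 1.00 with the filter at a mean of 50 counts, and 1.06 to 1.12 when a library was left out. That of the paternally expressed members was 0.018, -0.265 and -0.024 in the same 3 settings, and 0.049 to 0.249 when a library was left out. The scalings moved the median of all genes to -0.17 (upper-quartile) and -0.45 (library size only). They gave 4281 higher and 5561 lower calls (43.5% higher) and 2686 and 11168 (19.4%), against 59.4% higher. Relative to these medians, the maternal members stayed at 1.11 in both. This had to hold, since a change of scaling shifts all genes by about the same amount. Peg3 went to -0.042 and -0.327 and Plagl1 to -0.119 and -0.404 in these scalings, and Dlk1 to -0.204, M6pr to -0.189 and Dnmt3a to -0.027 with the library size only. Plagl1 was -0.006 with TMM factors without mitochondrial and the 100 most abundant genes, -0.01 with no filter, -0.063 with the filter at a mean of 50 counts, and from -0.076 to 0.122 when a library was left out. The difference in the log2 ratio of H19 to Igf2 ranged from -0.571 to 1.27 when a library was left out. The causes were not tested. Depth limits Igf2 and Dlk1, with 1 to 36 counts per library.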

Other observations

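The remaining marker lists moved as follows. All 6 endothelial markers were called higher in the libraries labelled Dab2-cKO, among them Pecam1 (307.0 ± 27.6 and 1131.5 ± 23.3 normalized counts, SD, n = 3). Of 6 immune markers 5 were called higher, with Lyz2, a lysozyme of macrophages, at 366.6 ± 20.7 and 2117.6 ± 118.8. Of 5 adipocyte markers 4 were called higher and 1 lower, with Cfd at 560.4 ± 44.8 and 2564.1 ± 116.2. Of 5 melanocyte markers 4 were called lower, with Mlana at 196.1 ± 48.9 and 35.6 ± 8.3. In skeletal muscle, Acta1 rose from 6428.4 ± 456.8 to 40308.6 ± 463.2, and in the IRS, Krt71 fell from 32180.6 ± 2996.3 to 262.4 ± 29.1 and Tchh from 162270 ± 16013 to 1517.4 ± 13.5.

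The rows of the microRNA genes hosted by members held few or no counts. Mir675 and Mir770 had 0 counts in every library, but all their bases are also exon bases of H19 and Meg3, so that no limit can be drawn from these rows. Mir335 and Mir483 were not tested either.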
